A study of Rattus norvegicus with 3 samples.

Results

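The extracellular proteases of the matrix and their inhibitors were followed across cell types in the hearts of WT, BMD and DMD rats. The members were all genes whose symbol starts with Mmp, Timp, Adamts, Adamtsl or Adam and a number, which gave 74 of the 22250 genes counted: 22 matrix metalloproteinases (MMP), 4 tissue inhibitors of metalloproteinases (TIMP), 25 ADAM, 19 ADAMTS and 4 ADAMTS-like genes. The rule reads symbols only. Nuclei came from the heart apex, with parts of the septum and of both ventricles, at 12 months of age. They were stained with DAPI, sorted by flow cytometry and sequenced with a 10x Genomics droplet kit in 1 library per genotype. The BMD line was made on the Sprague Dawley background, and the strain of the DMD line is not given in the sources used here. BMD rats (line R-BMDdel45-47) carry an in-frame deletion in Dmd, the gene of dystrophin, DMD rats (line R-DMDdel52) carry a deletion in the same gene, and WT rats carry neither. The number of animals behind a library and their sex are not given in the sources used here for these samples. Every difference between genotypes therefore compares 1 library with 1 other, no test between genotypes was run, and all intervals are at 95% and cover counting error only.

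MMPs are zinc-dependent enzymes that together cut most proteins of the matrix, some secreted and some, the membrane-type MMPs, held at the cell surface. ADAMs are membrane proteins that mostly release growth factors, cytokines and receptors from the cell surface, while ADAMTS enzymes are secreted and cut proteoglycans such as versican and aggrecan, trim procollagens or act on fibrillin microfibrils. ADAMTS-like proteins share the binding domains of ADAMTS enzymes but lack the catalytic one, and TIMPs block MMPs and, to different degrees, ADAMs and ADAMTSs. In a diseased heart the balance of these genes bears on fibrosis, and fibroblasts, vessel cells and leukocytes are known sources.

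The libraries held 21609238 (WT), 21142346 (BMD) and 19215994 (DMD) unique molecular identifiers (UMIs, counts of single RNA molecules). The top 9964, 6810 and 7890 barcodes by UMI total were kept as nuclei, at medians of 1212.5, 1486.5 and 1229 UMIs. Between 12 and 20 nucleus barcodes were shared by each pair of libraries. Dmd itself was at 7641, 10584 and 6977 CPM (counts per 1000000 UMIs) over all nuclei of WT, BMD and DMD. The deletions take out a small part of the gene, so this level is no check of the labels. Clustering without the members gave 17 clusters, of which 12 were named from marker genes into 9 classes, called fibroblast-like and so on. Members were summed over a class and library and given as CPM of that sum. A member was past the fold when its CPM differed at least 1.5-fold from WT with an interval that left out equality, among genes with at least 50 UMIs in the class. BMD and DMD were both set against the same WT library, so their ratios share its error.

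More members were highest in fibroblast-like nuclei than in any other class. Of the 74, 47 had at least 50 UMIs over the named classes, and 17 of these, 36.2%, were highest in fibroblast-like nuclei, where 12.3% of all 13208 genes of that depth were highest. The 17 took in Mmp2, Mmp14 and Mmp23, Timp1 and Timp2, 9 ADAMTS genes and the ADAMTS-like genes Adamtsl2, Adamtsl3 and Adamtsl4, but no ADAM. For 12 of the 17 the class was the same in each of the 3 libraries. The other members were spread over all classes, with 6 each highest in cardiomyocyte-like, endothelial-like and Schwann-like nuclei, 5 in lymphatic-like, 3 in monocyte-like, 2 in mural-like and 1 each in macrophage-like and T or B cell-like nuclei. Of these 30 members, 12 had the same highest class in each library, with 1 of 6 for cardiomyocyte-like and 2 of 6 for Schwann-like nuclei. Adam12 and Mmp16 were among the 6 highest in Schwann-like nuclei, a class of few nuclei. For 2 of these 6 the level exceeded that of the next class beyond counting error. Timp4 and Mmp8 had little outside a single named class. Timp4, a TIMP known for its high level in heart tissue, was at 181 CPM in endothelial-like nuclei and 18.8 CPM in the next class, lymphatic-like nuclei. Mmp8, the neutrophil collagenase, was at 450.2 CPM in monocyte-like nuclei and below 1 CPM in every other named class. Adam23, a receptor of the LGI proteins without protease activity, was at 1280.3 CPM in Schwann-like and 167 CPM in macrophage-like nuclei, though the small Schwann-like class held 236 of its UMIs and fibroblast-like nuclei 619. Adamts14, a procollagen N-proteinase, was at 177 CPM in T or B cell-like and 44.3 CPM in fibroblast-like nuclei, on 265 and 496 UMIs. By UMIs over all nuclei the 10 leading members were Adam19, Adamts12, Adamts19, Timp2, Adamts9, Adamts6, Adamtsl3, Adam10, Timp3 and Adamts2, with 25127 to 10401 UMIs.

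**Figure D1:**
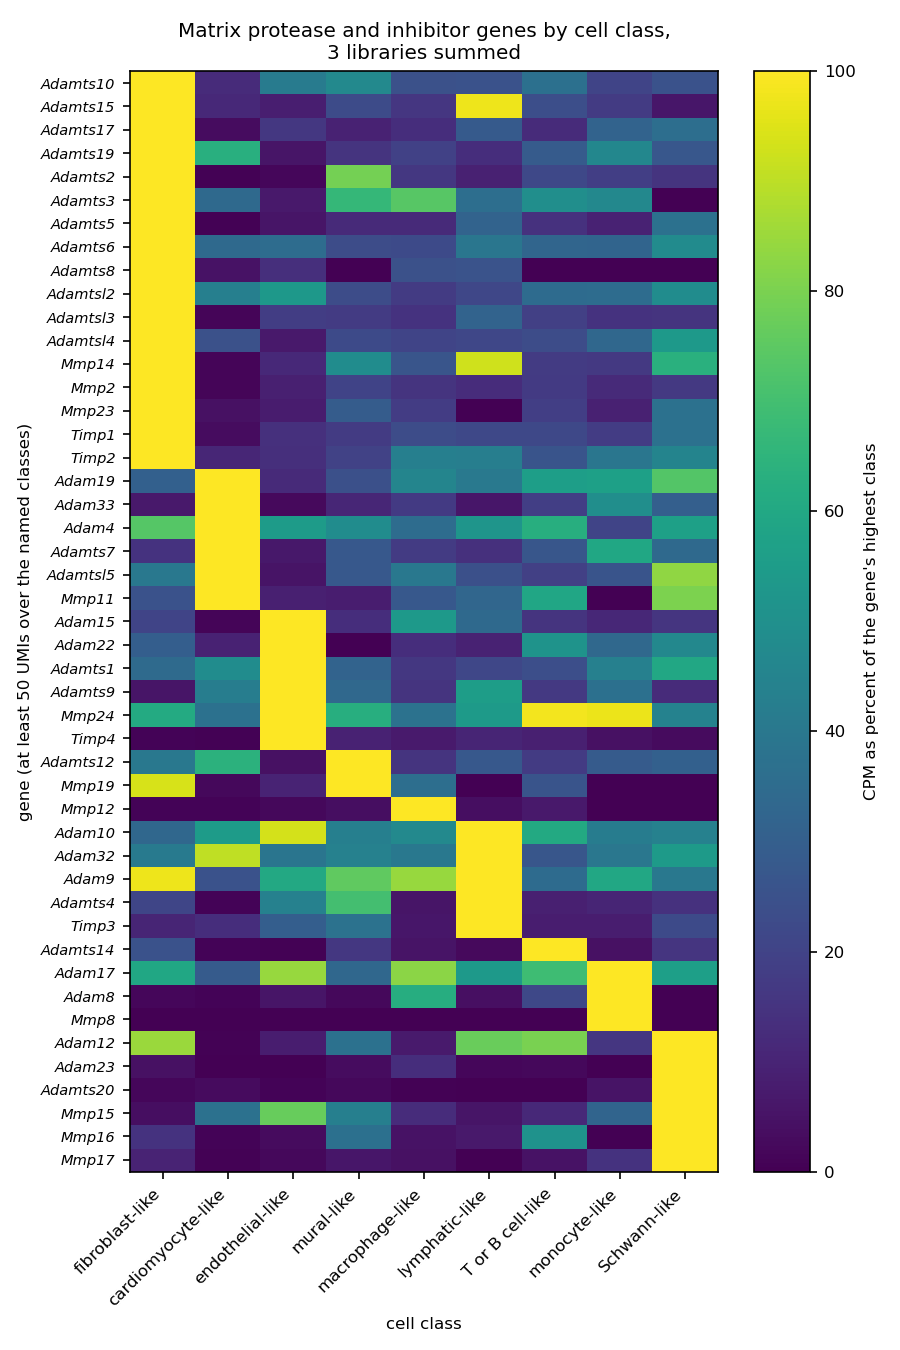
Each row is 1 of the 47 members with at least 50 UMIs and each column 1 of the 9 named classes, with the 3 libraries summed. The colour is the CPM as a percent of the gene's own highest class, so rows cannot be compared in level. The block of 17 genes at the top is highest in fibroblast-like nuclei, while Timp4, Mmp12, Mmp8 and Adam23 have low values outside a single class.

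In fibroblast-like nuclei the changes ran in both directions, with higher Adamtsl2, Adamts17 and Timp3 and lower Adamts5 and Adamts12 in both mutant libraries. Of the 37 members with at least 50 UMIs in fibroblast-like nuclei, 7 were past the fold on the higher side in BMD, where 5.74% of all genes were, and 5 on the lower side, against 9.1% of all genes. In DMD, 7 members were past it on the higher side (5.45% of all genes) and 4 on the lower side (4.76%). The median log2 ratio to WT over these members was 0.02 in BMD and 0.06 in DMD, beside -0.05 and -0.02 over all genes with at least 50 UMIs in the class. The genes past the fold in both libraries and in the same direction were Adamtsl2, Adamts17 and Timp3, higher, and Adamts5 and Adamts12, lower.

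Adamtsl2, an ADAMTS-like protein that binds fibrillin and latent TGF-beta binding protein, had the largest ratio to WT among members with at least 100 UMIs in the class. It was at 20.8 CPM (WT, 101 UMIs), 78.1 (BMD, 228 UMIs) and 159.7 (DMD, 549 UMIs). The order WT, BMD, DMD had no overlap of intervals, with log2 ratios to WT of 1.91 (1.56 to 2.26) in BMD and 2.94 (2.63 to 3.26) in DMD, that is 3.75-fold and 7.66-fold. Adamts17, an ADAMTS linked to fibrillin microfibrils, was at 33.4 CPM (WT, 162 UMIs), 136 (BMD, 396 UMIs) and 81.1 (DMD, 279 UMIs), so that here the BMD library was the highest. Its log2 ratios were 2.02 (1.75 to 2.29) in BMD and 1.28 (0.995 to 1.57) in DMD. Adamts6, which acts on microfibril components, was at 432 CPM (WT, 2095 UMIs), 816 (BMD, 2383 UMIs) and 531 (DMD, 1827 UMIs), past the fold in BMD (1.89-fold) and not in DMD (1.23-fold). Adamts19, known from heart valve disease, was at 428 CPM (WT, 2074 UMIs), 623 (BMD, 1820 UMIs) and 678 (DMD, 2333 UMIs). Over the whole class it reached the fold in DMD (1.59-fold) but not in BMD (1.46-fold), and its values within clusters are given below. The other fibrillin-related members differed less. Adamts10 was at 185 CPM (WT), 191 (BMD) and 205 (DMD), and Adamtsl4, which binds fibrillin, at 268 CPM (WT), 276 (BMD) and 309 (DMD). Adamtsl3 was within the fold too, at 771 CPM (WT), 719 (BMD) and 771 (DMD).

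Among the ADAMTS proteoglycanases, the enzymes that cut versican and aggrecan, the summed level of all 7 was 925, 581 and 537 CPM in WT, BMD and DMD. Adamts5 made up most of this sum. It was at 738 CPM (WT, 3579 UMIs), 415 (BMD, 1211 UMIs) and 354 (DMD, 1217 UMIs), which is 1.78-fold lower in BMD and 2.09-fold lower in DMD, the log2 ratios being -0.83 (-0.93 to -0.74) and -1.06 (-1.16 to -0.97). Adamts1 was lower in BMD, at 31.8 CPM (WT, 154 UMIs), 17.1 (BMD, 50 UMIs) and 22.7 (DMD, 78 UMIs). Over the whole class Adamts4 and Adamts8, both scarce, went the other way in BMD, and their values within clusters are given below. Adamts4 was at 6.396 CPM (WT, 31 UMIs), 11.98 (BMD, 35 UMIs) and 6.398 (DMD, 22 UMIs), and Adamts8 at 6.602 CPM (WT, 32 UMIs), 11.98 (BMD, 35 UMIs) and 8.72 (DMD, 30 UMIs). Adamts15 stayed within the fold in both libraries. Adamts12, which cuts cartilage oligomeric matrix protein, was at 645 CPM (WT, 3128 UMIs), 366 (BMD, 1069 UMIs) and 381 (DMD, 1310 UMIs), lower by 1.76-fold in BMD and 1.69-fold in DMD. Its relative Adamts7 was at 14.4 CPM (WT, 70 UMIs), 10.3 (BMD, 30 UMIs) and 9.02 (DMD, 31 UMIs) and was past the fold in DMD. The procollagen N-proteinases, which trim the ends of fibrillar procollagens, were not past the fold in either library. Adamts2, the most counted of them, was at 720.3 CPM (WT), 657 (BMD) and 633 (DMD).

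**Figure D2:**
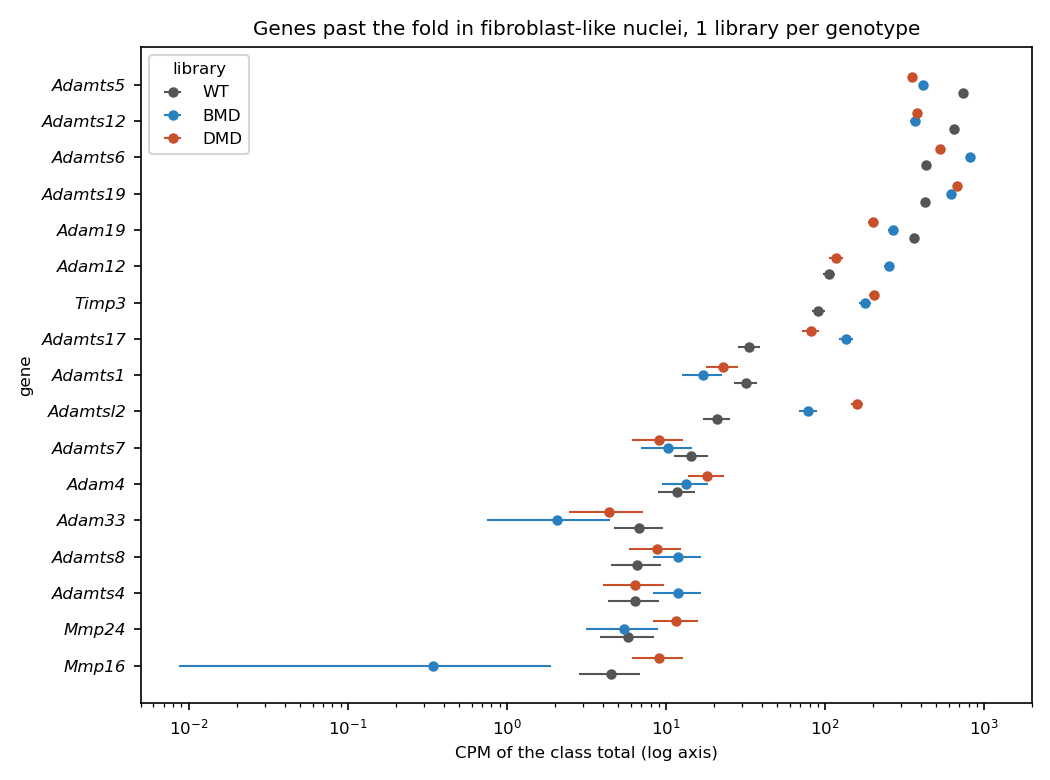
Points show the CPM of 1 library in fibroblast-like nuclei on a log axis and bars the exact Poisson interval, for the 17 members past the fold in BMD or DMD. Adamtsl2, Adamts17 and Timp3 lie to the right of WT in both mutant libraries, Adamts5 and Adamts12 to the left, and Mmp16 in BMD rests on 1 UMI.

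The most counted MMPs of fibroblast-like nuclei, Mmp2 and Mmp14, were within the fold. Mmp2, the gelatinase that fibroblasts secrete as a proenzyme, was at 464 CPM (WT, 2250 UMIs), 314 (BMD, 918 UMIs) and 478 (DMD, 1645 UMIs). The BMD value was 1.48-fold below WT, just short of the fold. Mmp14, the membrane-type MMP that activates it, also had its lowest value in BMD, at 129 CPM (WT, 626 UMIs), 93.8 (BMD, 274 UMIs) and 127 (DMD, 438 UMIs). Mmp16, also a membrane-type MMP and an activator of MMP2, was scarce and uneven. It was at 4.54 CPM (WT, 22 UMIs), 0.342 (BMD, 1 UMI) and 9.02 (DMD, 31 UMIs). The log2 ratios were -3.73 (-9.10 to -1.10) in BMD, on a single UMI, and 0.99 (0.16 to 1.85) in DMD. The DMD value includes the fibroblast-like nuclei with bone or cartilage genes that are described below. Mmp24, a further membrane-type MMP, was at 5.78 CPM (WT, 28 UMIs), 5.48 (BMD, 16 UMIs) and 11.6 (DMD, 40 UMIs) and past the fold in DMD. Mmp24 stood higher in free RNA (barcodes with at most 50 UMIs) than in the nuclei, at 69.8 CPM (WT), 26.8 (BMD) and 21.1 (DMD). Of the ADAMs, Adam19, a sheddase of neuregulin, was at 363 CPM (WT, 1759 UMIs), 269 (BMD, 785 UMIs) and 199.8 (DMD, 687 UMIs), lower in DMD by 1.82-fold. Adam33 was lower in BMD on 6 UMIs, at 6.81 CPM (WT, 33 UMIs), 2.05 (BMD, 6 UMIs) and 4.36 (DMD, 15 UMIs). Adam4 was past the fold in DMD, at 11.8 CPM (WT, 57 UMIs), 13.4 (BMD, 39 UMIs) and 18.03 (DMD, 62 UMIs). Adam9, Adam10 and Adam17 were not past the fold here.

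Adam12, a metalloprotease that releases HB-EGF and cuts IGF-binding proteins, was at 106 CPM (WT, 513 UMIs), 251 (BMD, 734 UMIs) and 117 (DMD, 403 UMIs) in fibroblast-like nuclei. It was 2.37-fold above WT in BMD, with a log2 ratio of 1.25 (1.08 to 1.41), and not past the fold in DMD, at 0.15 (-0.04 to 0.34). The class had 2 clusters. The larger, of 6336 nuclei, was led by Abca8a and Scara5, and the smaller, of 1091 nuclei, by Ltbp2, Tnc, Ccl2 and Thbs1, genes of matrix assembly and inflammation. The smaller cluster made up 7.12% (WT), 28.7% (BMD) and 16.3% (DMD) of the fibroblast-like nuclei. This share depended on the clustering run. On the same barcodes, the cluster led by Ltbp2 held 292, 582 and 484 nuclei (WT, BMD, DMD) at a finer Leiden resolution of 1.0. With the members left in the clustering it held 231, 526 and 413. Barcodes of at least 500 UMIs gave nearly the same fibroblast-like class, of 3535, 1650 and 2322 nuclei beside 3523, 1645 and 2259. Fewer of these lay in a cluster led by Tnc. The cluster led by Tnc made up 4.33%, 8.48% and 5.12% in WT, BMD and DMD among barcodes of at least 500 UMIs, and 4.58%, 8.51% and 4.08% among those of at least 1000 UMIs, where DMD was not above WT. Adam12 was higher in the smaller cluster in every library. In the smaller cluster Adam12 was at 688 CPM (WT, 316 UMIs), 549 (BMD, 543 UMIs) and 334 (DMD, 230 UMIs), and in the larger at 44.9 CPM (WT, 197 UMIs), 98.8 (BMD, 191 UMIs) and 62.9 (DMD, 173 UMIs). Within the smaller cluster DMD was thus below WT, at a log2 ratio of -1.05 (-1.30 to -0.80), and BMD within the fold. Within the larger cluster BMD was above WT, at 1.14 (0.84 to 1.43), and DMD within the fold. Over the whole class, both the share of the smaller cluster and the levels inside the clusters differed between libraries.

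Over the 37 members with at least 50 UMIs in the class, Adam12, Adamts6, Timp1 and Adamts8 were past the fold on the higher side in the smaller cluster in all 3 libraries, as were 2.76% of all genes. Adamtsl4, Adamts12, Adamts5 and Adamts19 were on the lower side in all 3, as were 1.86% of all genes. The clusters were drawn without the members but from the same nuclei, so these counts are a description. Within clusters the direction of several genes held. Adamtsl2 was at 6.54 CPM (WT, 3 UMIs), 92.1 (BMD, 91 UMIs) and 207 (DMD, 143 UMIs) in the smaller cluster and 22.3 CPM (WT, 98 UMIs), 70.9 (BMD, 137 UMIs) and 148 (DMD, 406 UMIs) in the larger, where it was 3.17-fold and 6.61-fold above WT. Adamts5 was at 447 CPM (WT), 260.1 (BMD) and 205 (DMD) in the smaller cluster and 769 CPM (WT), 494 (BMD) and 391 (DMD) in the larger, below WT in both mutants in each. Adamts12 and Adamts17 also kept their direction in both clusters. Adamts4 and Adamts8, higher in BMD over the whole class, did not. In the smaller cluster Adamts4 was at 37.0 CPM (WT, 17 UMIs) and 16.2 (BMD, 16 UMIs), and Adamts8 at 30.5 (WT, 14 UMIs) and 22.3 (BMD, 22 UMIs). In the larger, Adamts4 was at 3.19 CPM (WT, 14 UMIs) and 9.83 (BMD, 19 UMIs), and Adamts8 at 4.10 (WT, 18 UMIs) and 6.73 (BMD, 13 UMIs). Adamts6 was at 956 CPM (WT), 1219 (BMD) and 966 (DMD) in the smaller cluster and 377 CPM (WT), 609 (BMD) and 422 (DMD) in the larger. Adamts19 was at 220 CPM (WT), 312 (BMD) and 405 (DMD) in the smaller cluster and 450 CPM (WT), 782 (BMD) and 747 (DMD) in the larger. There both mutants were above WT and close to each other. Timp1, within the fold over the whole class, was lower in BMD inside each cluster.

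**Figure D3:**
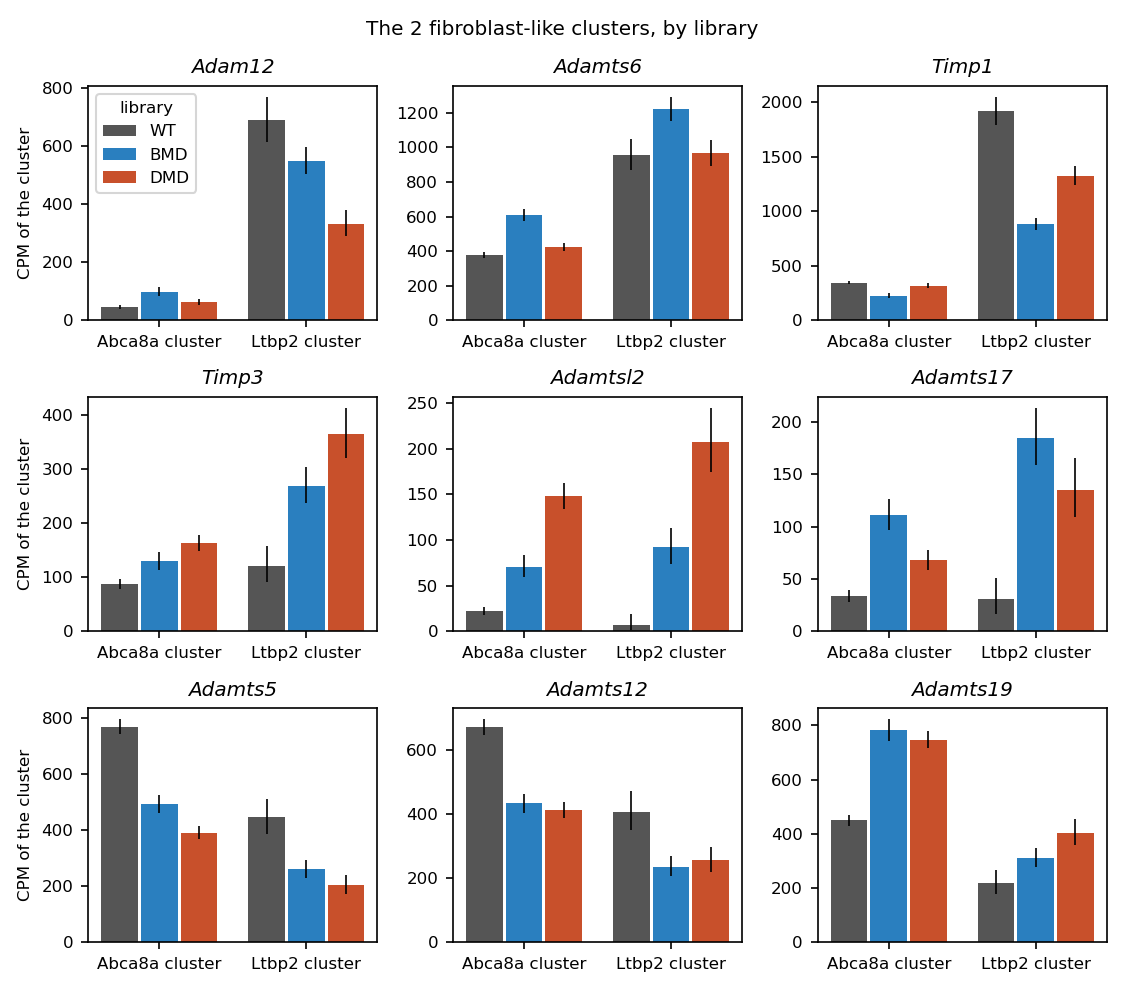
Bars give the CPM of 9 members in the larger (Abca8a) and the smaller (Ltbp2) fibroblast-like cluster for each library, with exact Poisson intervals. Adam12, Adamts6 and Timp1 stand higher in the Ltbp2 cluster in every library, Adamts5, Adamts12 and Adamts19 lower, and Adamtsl2 is highest in DMD in both.

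The 4 inhibitors behaved differently. Timp1, a secreted TIMP induced in injured tissue, was at 496 CPM (WT, 2406 UMIs), 449.8 (BMD, 1314 UMIs) and 522 (DMD, 1794 UMIs) in fibroblast-like nuclei. No library was past the fold. In the smaller cluster it was at 1917 CPM (WT, 880 UMIs), 883 (BMD, 873 UMIs) and 1326 (DMD, 914 UMIs) and in the larger at 348 CPM (WT, 1526 UMIs), 228 (BMD, 441 UMIs) and 320.1 (DMD, 880 UMIs), so that BMD was 2.17-fold and 1.52-fold below WT inside the clusters. Timp2, which blocks MMP2 but also serves in its activation by MMP14, was at 662 CPM (WT, 3210 UMIs), 694 (BMD, 2026 UMIs) and 944 (DMD, 3247 UMIs) in the class, short of the fold in both mutants. Timp1 and Timp2 were abundant in free RNA, Timp1 at 756, 440.1 and 700.4 CPM and Timp2 at 501, 371 and 829 CPM in WT, BMD and DMD. Beside these stand the levels of Timp2 in endothelial-like nuclei, at 80.3 CPM (WT, 108 UMIs), 86.4 (BMD, 156 UMIs) and 129.8 (DMD, 260 UMIs), and in mural-like nuclei, at 109 CPM (WT, 74 UMIs), 126 (BMD, 66 UMIs) and 215 (DMD, 133 UMIs), both past the fold in DMD. With free RNA subtracted, the log2 ratios in DMD were 0.96 and 1.14. The fibroblast markers also had their highest sum in DMD in both classes, at 521, 381 and 876 CPM in WT, BMD and DMD for endothelial-like nuclei and 2357, 1839 and 3679.5 CPM in WT, BMD and DMD for mural-like nuclei, and their part in the Timp2 values was not tested.

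Timp3, the TIMP that stays bound to the matrix and also blocks ADAM17 and the aggrecanases, was past the fold on the higher side in both mutants in fibroblast-like and in cardiomyocyte-like nuclei. In fibroblast-like nuclei it was at 90.6 CPM (WT, 439 UMIs), 177 (BMD, 518 UMIs) and 204 (DMD, 700 UMIs), with log2 ratios of 0.97 (0.78 to 1.16) in BMD and 1.17 (0.99 to 1.34) in DMD. In the cardiomyocyte-like class it was at 130.3 CPM (WT, 828 UMIs), 229 (BMD, 1525 UMIs) and 199 (DMD, 772 UMIs), and its log2 ratio was 0.81 (0.69 to 0.94) in BMD and 0.61 (0.46 to 0.75) in DMD. Inside the finer cardiomyocyte-like clusters (Leiden resolution 1.0) it was within the fold. Its highest class, lymphatic-like nuclei, was within the fold in both, at 1571 CPM (WT, 293 UMIs), 1493 (BMD, 585 UMIs) and 1231 (DMD, 400 UMIs). Mural-like and endothelial-like nuclei were also within the fold. Among the named classes, Timp4 was found mainly in endothelial-like nuclei and was lower there in both mutants. In endothelial-like nuclei it was at 299.7 CPM (WT, 403 UMIs), 115 (BMD, 207 UMIs) and 162 (DMD, 324 UMIs), 2.61-fold lower in BMD and 1.85-fold lower in DMD. All DMD nuclei together held 428 Timp4 UMIs. Timp4 was also a leading gene of an unnamed cluster with endothelial and fibroblast markers, of which 89.6% were doublets. That cluster held 164 (WT), 70 (BMD) and 209 (DMD) nuclei. The log2 ratios were -1.39 (-1.63 to -1.14) and -0.89 (-1.11 to -0.68), and with Scrublet doublets removed -1.40 and -0.92.

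**Figure D4:**
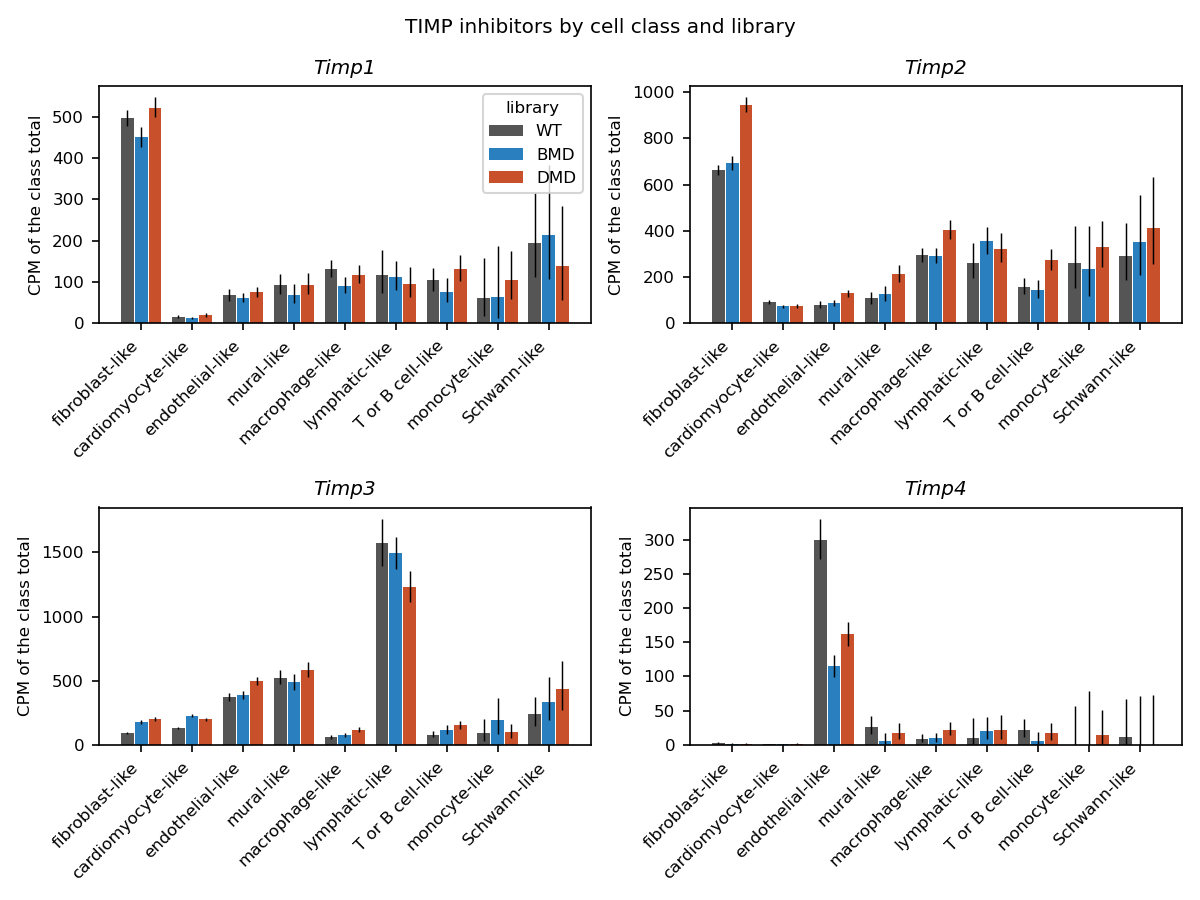
Bars give the CPM of each TIMP in the 9 classes for WT, BMD and DMD, with exact Poisson intervals and a linear axis of its own for each gene. Timp1 and Timp2 are highest in fibroblast-like nuclei, Timp3 in lymphatic-like nuclei, and Timp4 in endothelial-like nuclei, where the WT bar is the tallest.

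In cardiomyocyte-like nuclei, Adamts1, Adamts19 and Timp3 were higher in both mutants, and in DMD Adamts9 was higher and Adam10 lower. Of the 28 members with at least 50 UMIs in cardiomyocyte-like nuclei, 5 were past the fold on the higher side in BMD, where 7.96% of all genes were, and 2 on the lower side, against 8.47% of all genes. In DMD, 8 members were past it on the higher side (9.33% of all genes) and 5 on the lower side (8.94%). The median log2 ratio to WT over these members was -0.13 in BMD and -0.002 in DMD, beside -0.05 and -0.03 over all genes with at least 50 UMIs in the class. The summed level of the 7 proteoglycanases was 285, 372 and 611 CPM in WT, BMD and DMD. Adamts9, a versican-cutting enzyme, was at 248 CPM (WT, 1579 UMIs), 323 (BMD, 2152 UMIs) and 532 (DMD, 2069 UMIs), with a log2 ratio of 1.10 (1.003 to 1.19) in DMD and 0.38 (0.28 to 0.47) in BMD, the latter short of the fold. Adamts1, a proteoglycanase induced by injury, was at 19.5 CPM (WT, 124 UMIs), 35.9 (BMD, 239 UMIs) and 59.9 (DMD, 233 UMIs), in the order WT, BMD, DMD without overlap of the intervals. Adamts19 was at 257 CPM (WT, 1632 UMIs), 399 (BMD, 2656 UMIs) and 424 (DMD, 1650 UMIs), past the fold in both. Adam10, the sheddase of Notch receptors and cadherins, was at 329 CPM (WT, 2089 UMIs), 219 (BMD, 1460 UMIs) and 147 (DMD, 573 UMIs). It was 2.23-fold lower in DMD, a log2 ratio of -1.16 (-1.29 to -1.02), and just short of the fold in BMD, at -0.58 (-0.68 to -0.49).

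The make-up of this class differed between libraries. At the finer resolution it split into a cluster led by Dhrs7c, with 88.9%, 24.003% and 29.8% of the nuclei in WT, BMD and DMD, and one led by Xirp2, with Nppa and Nppb, genes induced by load on the heart, among its leading genes and 10.8%, 75.5% and 69.3% of the nuclei. The WT nuclei thus lay mostly in the first and the mutant nuclei mostly in the second. Within the Dhrs7c and the Xirp2 cluster, the log2 ratio of Adamts9 in DMD was 0.74 and 1.21, that of Adamts1 1.39 and 1.10, that of Adam10 -0.97 and -0.85 and that of Adamtsl2 -1.20 and -1.31, all past the fold. Adamts19 was past it in DMD in both (0.62 and 0.71) and in BMD in the Xirp2 cluster alone (0.44 and 0.64). Adamts1 in BMD was past it in the Dhrs7c cluster alone (0.75 and 0.32). Timp3 was within the fold in both, at 0.01 and 0.37 in BMD and 0.11 and 0.15 in DMD, and so were Adamtsl5 and Mmp15. Timp3 stood at 119.6 CPM (WT, 653 UMIs), 119.98 (BMD, 134 UMIs) and 129 (DMD, 104 UMIs) in the Dhrs7c cluster and at 194 CPM (WT, 169 UMIs), 251 (BMD, 1377 UMIs) and 215 (DMD, 654 UMIs) in the Xirp2 cluster.

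Adamtsl2 in these nuclei went against its direction in fibroblast-like nuclei. It was at 41.4 CPM (WT, 263 UMIs), 38.3 (BMD, 255 UMIs) and 14.4 (DMD, 56 UMIs), 2.87-fold lower in DMD and within the fold in BMD. Adamtsl5 was at 31.9 CPM (WT, 203 UMIs), 58.6 (BMD, 390 UMIs) and 45.5 (DMD, 177 UMIs) and past the fold in BMD. Adam33 was past it in DMD, at 58.9 CPM (WT, 374 UMIs), 71.2 (BMD, 474 UMIs) and 93.9 (DMD, 365 UMIs). Adamts3, a procollagen N-proteinase that also processes VEGF-C, was lower in both mutants, at 15.6 CPM (WT, 99 UMIs), 9.76 (BMD, 65 UMIs) and 7.97 (DMD, 31 UMIs). The membrane-type Mmp15, at 45.01 CPM (WT, 286 UMIs), 33.5 (BMD, 223 UMIs) and 27.3 (DMD, 106 UMIs), and the stromelysin Mmp11, at 7.24 CPM (WT, 46 UMIs), 8.11 (BMD, 54 UMIs) and 3.601 (DMD, 14 UMIs), were past the fold on the lower side in DMD. Adam19 and Adamts12, the members with the most UMIs in this class, were within the fold. Adam19 was at 948 CPM (WT), 971 (BMD) and 883 (DMD), and Adamts12 at 897 CPM (WT), 691 (BMD) and 778 (DMD). The 4 further members past the fold are mainly genes of fibroblast-like nuclei or of free RNA and had few UMIs here. Adamtsl3 was at 5.67 CPM (WT, 36 UMIs), 12.3 (BMD, 82 UMIs) and 19.03 (DMD, 74 UMIs). Adamts2 was at 3.305 CPM (WT, 21 UMIs), 2.703 (BMD, 18 UMIs) and 7.72 (DMD, 30 UMIs) and Mmp2 at 7.24 CPM (WT, 46 UMIs), 3.15 (BMD, 21 UMIs) and 9.002 (DMD, 35 UMIs). Mmp24 was at 2.68 CPM (WT, 17 UMIs), 4.81 (BMD, 32 UMIs) and 7.201 (DMD, 28 UMIs). The summed level of the fibroblast markers in cardiomyocyte-like nuclei was 133, 104 and 243 CPM in WT, BMD and DMD, and their part in these 4 results was not tested. With free RNA subtracted, the log2 ratio of Mmp2 in BMD was 1.74, above WT instead of below.

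In endothelial-like nuclei, Timp4 was lower and Adamtsl2 higher in both mutants. Of the 29 members with at least 50 UMIs in endothelial-like nuclei, 2 were past the fold on the higher side in BMD, where 3.74% of all genes were, and 5 on the lower side, against 6.18% of all genes. In DMD, 2 members were past it on the higher side (4.08% of all genes) and 1 on the lower side (3.17%). The median log2 ratio to WT over these members was -0.14 in BMD and 0.12 in DMD, beside -0.05 and -0.01 over all genes with at least 50 UMIs in the class. Beside Timp4, Adam22 was lower in BMD, at 18.6 CPM (WT, 25 UMIs), 3.32 (BMD, 6 UMIs) and 14.5 (DMD, 29 UMIs). Adam22 is a catalytically inactive ADAM that binds LGI proteins. Adam15, an ADAM with an integrin-binding motif, was at 175 CPM (WT, 235 UMIs), 104 (BMD, 188 UMIs) and 154 (DMD, 308 UMIs) and past the fold in BMD. Adamtsl2 was higher in both mutants, at 23.8 CPM (WT, 32 UMIs), 44.3 (BMD, 80 UMIs) and 51.4 (DMD, 103 UMIs), as it was in fibroblast-like nuclei. Adamts6 was at 146 CPM (WT, 196 UMIs), 219 (BMD, 396 UMIs) and 218 (DMD, 436 UMIs), just past the fold in BMD (1.51-fold) and just short of it in DMD (1.49-fold). Adamts9, highest in this class, was at 715 CPM (WT), 792 (BMD) and 879.9 (DMD), and Adam10 at 421 CPM (WT), 441 (BMD) and 388 (DMD), both within the fold. Adamtsl3 and Mmp2, genes of fibroblast-like nuclei, were lower in BMD, Adamtsl3 at 185 CPM (WT, 249 UMIs), 100.3 (BMD, 181 UMIs) and 138 (DMD, 277 UMIs) and Mmp2 at 38.7 CPM (WT, 52 UMIs), 24.9 (BMD, 45 UMIs) and 48.9 (DMD, 98 UMIs). The fibroblast markers in endothelial-like nuclei summed to 521, 381 and 876 CPM in WT, BMD and DMD, and the log2 ratio of Mmp2 in BMD was 0.21 with free RNA subtracted. Their part in both results was not tested.

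In mural-like nuclei, the class of pericytes and smooth muscle, Adam12 stood out in DMD. Of the 22 members with at least 50 UMIs in mural-like nuclei, 2 were past the fold on the higher side in BMD, where 4.69% of all genes were, and 3 on the lower side, against 5.69% of all genes. In DMD, 5 members were past it on the higher side (5.75% of all genes) and 1 on the lower side (4.49%). The median log2 ratio to WT over these members was -0.03 in BMD and 0.09 in DMD, beside -0.04 and -0.03 over all genes with at least 50 UMIs in the class. Adam12 was at 20.6 CPM (WT, 14 UMIs), 24.8 (BMD, 13 UMIs) and 147 (DMD, 91 UMIs), a log2 ratio of 2.83 (2.01 to 3.76) in DMD. Among nuclei of at least 1000 UMIs, which were clustered and named anew, the ratio in DMD was -0.0044. In the main set, few nuclei held most of the count. In the DMD library, 28 nuclei held UMIs of at least 2 of 6 bone or cartilage genes (Ibsp, Bglap, Col2a1, Col11a1, Sp7 and Alpl), against 2 in BMD and 1 in WT, and 15 of the 28 lay among the mural-like nuclei. A further 4 lay in the larger and 3 in the smaller fibroblast-like cluster, and the values of fibroblast-like nuclei include them. The rule of 2 genes was set after the values were seen, and where the 28 nuclei came from was not tested. In the clustering of nuclei with at least 1000 UMIs, Ibsp, Bglap, Col2a1, Col11a1 and Alpl were raised in the Schwann-like cluster and not in the mural-like one. These 28 nuclei, of 7890, held 89 of the 748 Adam12 UMIs of DMD (11.9%) and 51 of the 93 Mmp16 UMIs (54.8%). They also held 17 of 39 UMIs of Mmp13, the collagenase known from hypertrophic cartilage and bone, all in 1 nucleus, and 15 of 27 of Adamts18.

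Without the 15 nuclei, Adam12 in mural-like nuclei of DMD was at 42.1 CPM (25 UMIs), still past the fold at a log2 ratio of 1.03 (0.03 to 2.09). Mmp16 in mural-like nuclei went from 22 to 2 UMIs in DMD, beside 0 in WT and 0 in BMD, where a count of 0 allows up to 4.41 and 5.73 CPM. Adamts6 was at 74.98 CPM (WT, 51 UMIs), 117 (BMD, 61 UMIs) and 205 (DMD, 127 UMIs) with them, and at 150.02 CPM in DMD without. Adamts9 was higher in both mutants, at 184 CPM (WT, 125 UMIs), 369 (BMD, 193 UMIs) and 286 (DMD, 177 UMIs), and little changed without them, at 276 CPM in DMD. Over all nuclei of a library, the UMIs of Mmp16 came to 34 (WT), 13 (BMD) and 93 (DMD), and those of Mmp13 to 2, 1 and 39. The remaining mural-like members past the fold were Adamts19, higher in DMD at 61.7 CPM (WT, 42 UMIs), 72.6 (BMD, 38 UMIs) and 115 (DMD, 71 UMIs), and Adamtsl3, Adamtsl4 and Adamts5, lower. Adamtsl4 was at 77.9 CPM (WT, 53 UMIs), 30.6 (BMD, 16 UMIs) and 75.8 (DMD, 47 UMIs). Adamts5, a gene of fibroblast-like nuclei, was at 86.7 CPM (WT, 59 UMIs), 47.8 (BMD, 25 UMIs) and 50.03 (DMD, 31 UMIs). With Scrublet doublets removed, its log2 ratio was 1.08 in BMD and 0.98 in DMD, above WT instead of below. The fibroblast markers in this class summed to 2357, 1839 and 3679.5 CPM in WT, BMD and DMD. Adamts12, highest here among all classes, was within the fold at 1259 CPM (WT), 1201 (BMD) and 1207 (DMD).

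In macrophage-like nuclei the members past the fold in BMD were mostly lower than WT. Of the 24 members with at least 50 UMIs in macrophage-like nuclei, 1 was past the fold on the higher side in BMD, where 5.0% of all genes were, and 8 on the lower side, against 8.91% of all genes. In DMD, 5 members were past it on the higher side (7.59% of all genes) and 2 on the lower side (6.65%). The median log2 ratio to WT over these members was -0.26 in BMD and 0.07 in DMD, beside -0.01 and 0.02 over all genes with at least 50 UMIs in the class. Mmp12, the macrophage elastase, was the only member highest in this class and was lower in both mutants. It was at 45.2 CPM (WT, 55 UMIs), 19.4 (BMD, 20 UMIs) and 18.01 (DMD, 18 UMIs), with log2 ratios of -1.22 (-2.03 to -0.46) in BMD and -1.33 (-2.18 to -0.54) in DMD. The make-up of the class differed too. At Leiden resolution 1.0, a cluster led by F13a1, Cd163 and Mrc1 held 37.4%, 67.5% and 60.8% of its nuclei in WT, BMD and DMD, and one led by Spp1 held 41.2%, 16.8% and 24.3%. In the F13a1 cluster Mmp12 was at 40.96 CPM (WT, 19 UMIs), 6.62 (BMD, 4 UMIs) and 3.52 (DMD, 2 UMIs). In the Spp1 cluster it was at 59.5 CPM (WT, 24 UMIs), 66.8 (BMD, 10 UMIs) and 85.02 (DMD, 16 UMIs), with log2 ratios of 0.17 (-1.06 to 1.28) in BMD and 0.51 (-0.50 to 1.49) in DMD, and neither was past the fold on the lower side. Over the whole class, Adamts3 was also lower in both, at 41.9 CPM (WT, 51 UMIs), 13.6 (BMD, 14 UMIs) and 16.005 (DMD, 16 UMIs). In DMD its log2 ratio was 0.064 when the class was formed at Leiden resolution 1.0. There the Spp1 cluster was left unnamed, so the macrophage-like class did not include that cluster. Adam15 was lower in BMD, at 93.7 CPM (WT, 114 UMIs), 60.3 (BMD, 62 UMIs) and 73.02 (DMD, 73 UMIs). Adamtsl5 was higher in both, on 12, 26 and 21 UMIs. The other members lower in BMD, Adamts5, Adamts2, Adamtsl3, Mmp2 and Mmp14, are genes of fibroblast-like nuclei. Adamts5 was at 95.4 CPM (WT, 116 UMIs), 20.4 (BMD, 21 UMIs) and 73.02 (DMD, 73 UMIs) and Mmp2 at 74.8 CPM (WT, 91 UMIs), 36.9 (BMD, 38 UMIs) and 78.02 (DMD, 78 UMIs). The others past the fold on the higher side in DMD were Timp3, at 60.02 CPM (WT, 73 UMIs), 76.8 (BMD, 79 UMIs) and 118 (DMD, 118 UMIs), Adamts9, at 78.9 CPM (WT, 96 UMIs), 104 (BMD, 107 UMIs) and 192 (DMD, 192 UMIs), Adamts6 and Adamts19. In this class the fibroblast markers summed to 1640.2, 1136 and 2637 CPM in WT, BMD and DMD, and the endothelial markers to 617, 620.04 and 1316 CPM in WT, BMD and DMD. The estimated free RNA was 17.04%, 21.3% and 16.6% of its UMIs in WT, BMD and DMD, beside 3.596%, 3.49% and 3.03% in fibroblast-like nuclei. The part of either in these results was not tested. With Scrublet doublets removed, the log2 ratio of Adamts5 in BMD was -2.76, that of Mmp2 -0.28, and that of Mmp12 -1.34.

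Mmp8 was concentrated in the small monocyte-like class, of 32, 34 and 98 nuclei in WT, BMD and DMD. The leading genes of the class were S100a9, S100a8 and Camp. Its markers, among them Cxcr2 and Csf3r, are shared with neutrophils, so the class name does not set monocytes apart from neutrophils. Mmp8 was at 77.01 CPM (WT, 5 UMIs), 279 (BMD, 13 UMIs) and 677 (DMD, 96 UMIs). The DMD library thus held the most by level and by nuclei, with a log2 ratio of 3.14 (1.86 to 4.79). The monocyte markers of the class stood in the same order, at 8378, 29735 and 42473 CPM in WT, BMD and DMD, and the cardiomyocyte markers summed to 12198, 9683 and 6561 CPM in WT, BMD and DMD. Their part in the Mmp8 values was not tested. Mmp9, a gelatinase stored in neutrophil granules, had 2, 2 and 18 UMIs in the class. In Schwann-like nuclei Adam23 was at 1494 CPM (WT, 123 UMIs), 1111 (BMD, 57 UMIs) and 1105 (DMD, 56 UMIs), within the fold. In T or B cell-like nuclei Adamts14 was at 240.3 CPM (WT, 141 UMIs), 121 (BMD, 46 UMIs) and 146 (DMD, 78 UMIs), with log2 ratios of -0.99 (-1.50 to -0.50) in BMD and -0.72 (-1.14 to -0.31) in DMD. The make-up of this class differed as well. At Leiden resolution 1.0 a cluster led by Clnk, Klri1 and Prf1 held 262, 76 and 174 nuclei in WT, BMD and DMD. Its leading genes also took in Klrd1 and Klrc2, genes of natural killer cells, which the class name does not set apart. One led by Themis and Lef1 held 187, 189 and 170. Their part in the Adamts14 values was not tested.

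**Figure D5:**
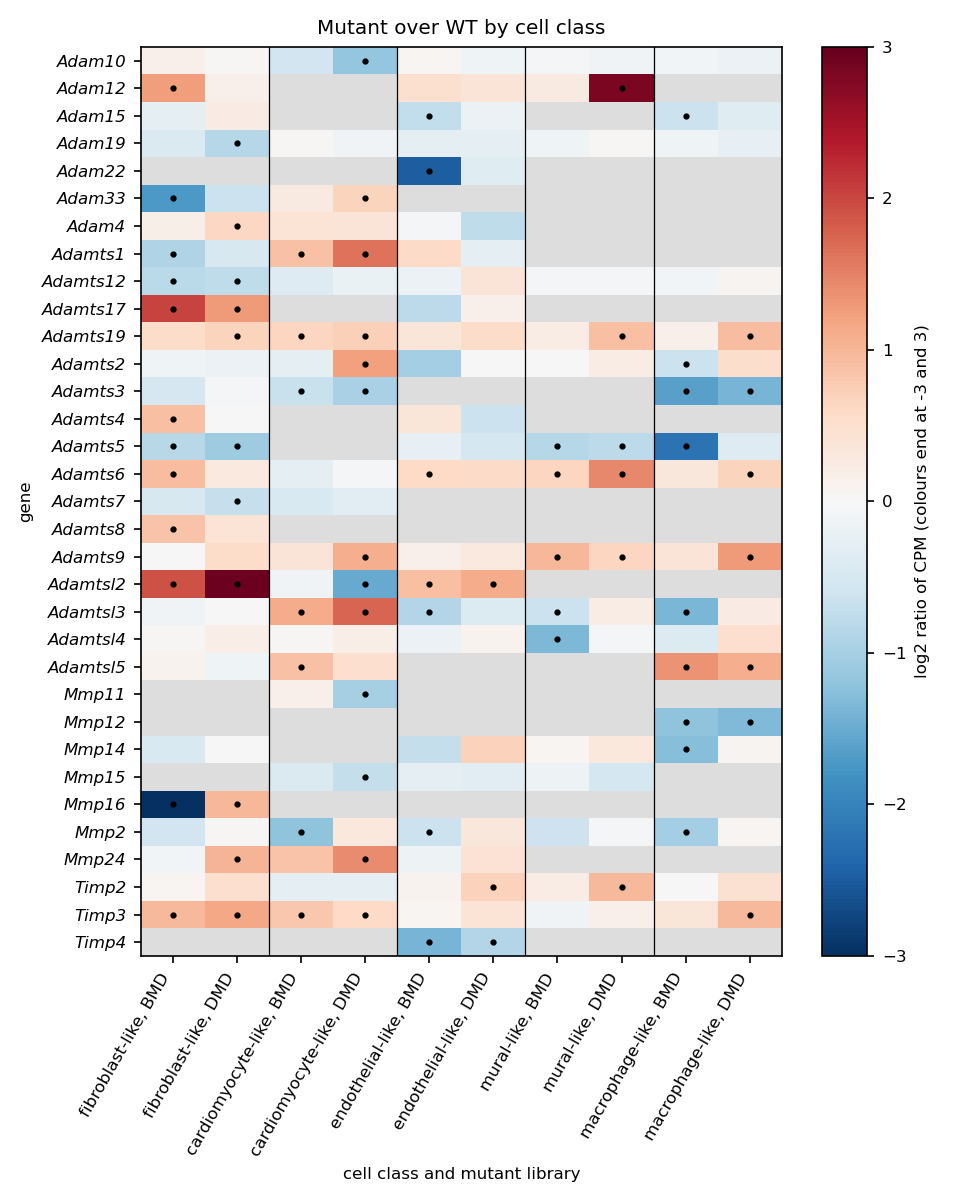
Rows are the members past the fold in at least 1 of the 5 largest classes and columns the BMD and DMD libraries in each class. Colour is the log2 ratio of CPM to WT, ending at -3 and 3, dots mark ratios past the fold and grey marks fewer than 50 UMIs. Timp4 is blue in both endothelial-like columns, Timp3 red in the fibroblast-like and cardiomyocyte-like columns, and Adamtsl2 red in fibroblast-like and blue in cardiomyocyte-like nuclei in DMD.

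The remaining members were scarce. Of the 74, 27 had fewer than 50 UMIs over the named classes, and 9 of these had no UMI in any nucleus: Adam21, Adam24, Adam34, Adam34l, Adam6a, Mmp10, Mmp1b, Mmp21 and Mmp28. Among them are the collagenase Mmp1b and the stromelysin Mmp10, and Mmp3, a further stromelysin, had 5 UMIs in all. None of the 27 reached 50 UMIs in a class, so none could be called.

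Other genes of matrix turnover were read in the same way, from a list of the plasminogen system, protease regulators, other proteases, and proteoglycans with fibrillins. In fibroblast-like nuclei 2 of 24 listed genes were past the fold on the higher side in BMD and 6 on the lower side, against 5.74% and 9.1% of all genes. In DMD 0 of 24 were on the higher side and 1, Tll2, on the lower, against 5.45% and 4.76%. Plaur, the urokinase receptor, was at 57.98 CPM (WT, 281 UMIs), 139.7 (BMD, 408 UMIs) and 69.8 (DMD, 240 UMIs), with its highest value in BMD. Htra3, a secreted serine protease, was lower in BMD, at 1114 CPM (WT, 5399 UMIs), 684 (BMD, 1999 UMIs) and 847 (DMD, 2912 UMIs). In cardiomyocyte-like nuclei Reck, a membrane-bound inhibitor of MMPs, was higher in both mutants, at 2.36 CPM (WT, 15 UMIs), 7.81 (BMD, 52 UMIs) and 7.97 (DMD, 31 UMIs). Htra1 was lower in both, at 33.5 CPM (WT, 213 UMIs), 16.8 (BMD, 112 UMIs) and 11.8 (DMD, 46 UMIs). In cardiomyocyte-like nuclei the listed genes past the fold, of 19, were 4 higher and 2 lower in BMD (all genes 7.96% and 8.47%), and 5 higher and 1 lower in DMD (9.33% and 8.94%). In endothelial-like nuclei the listed genes past the fold, of 21, were 1 higher and 3 lower in BMD (all genes 3.74% and 6.18%), and 0 higher and 2 lower in DMD (4.08% and 3.17%). In mural-like nuclei the listed genes past the fold, of 17, were 1 higher and 3 lower in BMD (all genes 4.69% and 5.69%), and 3 higher and 0 lower in DMD (5.75% and 4.49%). In macrophage-like nuclei the listed genes past the fold, of 23, were 0 higher and 6 lower in BMD (all genes 5.0% and 8.91%), and 6 higher and 6 lower in DMD (7.59% and 6.65%). In macrophage-like nuclei Ctsk, the collagen-cutting cathepsin, was past the fold in DMD, at 9.87 CPM (WT, 12 UMIs), 17.5 (BMD, 18 UMIs) and 85.02 (DMD, 85 UMIs). Vcan, the proteoglycan cut by ADAMTS enzymes, was lower there in both, at 700.5 CPM (WT, 852 UMIs), 275 (BMD, 283 UMIs) and 457 (DMD, 457 UMIs).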

How the data were processed

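Nuclei of heart tissue were profiled by single-nucleus RNA sequencing in 1 library per genotype. Per the labels and file headers, the authors aligned reads to rn6 with Cell Ranger and deposited raw UMI counts per gene and barcode. Whether intronic reads were counted, which sets how much of the nuclear RNA is seen, is not given in the sources used here. The WT counts came from an aggregate of the 3 libraries, in which depth had been equalised, while for BMD and DMD each library's own table was used.

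The top barcodes by UMI total were kept as nuclei. They were scaled to 10000 UMIs and clustered with Scanpy 1.11.5 (Leiden resolution 0.5) with the members left out, and doublets were scored with Scrublet and kept. Also left out of the clustering were mitochondrial genes, Xist, Y-linked genes and Nppa, Nppb, Myh6, Myh7, Tmem65, Ryr2, Gja1 and Dmd. A cluster was named "X-like" when at least 3 markers of a type were 2-fold higher in it, unless markers of another type led its top 10 genes or over 5 of these were mitochondrial. This left an Nrg1-led cluster with markers of vessel and of inner heart lining unnamed. Mixed clusters with over 50% Scrublet doublets were left unnamed, a limit set after the data were seen. UMIs were summed per class and library and given as CPM of that sum, with exact Poisson intervals for levels and Clopper-Pearson intervals for ratios. Summing reads no spread between animals, so no test between genotypes was possible.

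Named genes were Adam12, Mmp16, the 4 TIMPs, the 10 members with the most UMIs and every member past the 1.5-fold with at least 50 UMIs in 1 of the 5 largest classes. Genes named beyond this rule, such as Mmp8, Mmp9, Mmp13, Adam9, Adam17, Adam23, Adamts10, Adamts14, Adamts15 and Adamts18, were chosen after their values were seen. The members and all lists were chosen with earlier results of these data known. The alternatives were other limits on nuclei, doublets, mitochondrial share, clustering, free RNA, scaling (edgeR 4.0.16) and UMI minimum. Leaving out the nuclei with bone or cartilage genes and splitting the fibroblast-like, cardiomyocyte-like and macrophage-like classes into clusters were added after seeing the data. The counting scripts were tested on simulated data. Python 3.11.15, NumPy 2.4.6, SciPy 1.17.1, pandas 2.3.3 and matplotlib 3.10.9 were used.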

Additional observations from a re-analysis of the deposited data

Results flagged for a closer look

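The same member could stand on opposite sides of WT in different classes, each ratio past the fold. Each was picked out because the counting intervals of the ratios did not overlap, and the difference between classes or genotypes was not tested for want of replicate libraries. In BMD, the log2 ratio of Adamtsl3 in cardiomyocyte-like nuclei was above that in endothelial-like nuclei by 2.0. It was above that in mural-like nuclei by 1.77 and above that in macrophage-like nuclei by 2.48. Adamtsl3 is mainly a gene of fibroblast-like nuclei and had few UMIs in cardiomyocyte-like nuclei. The fibroblast markers summed lower in BMD than in WT in each of these classes. Their part in the Adamtsl3 ratios was not tested. In DMD, the log2 ratio of Adamtsl2 in fibroblast-like nuclei was 4.46 above that in cardiomyocyte-like nuclei, and the ratio in endothelial-like nuclei 2.63 above it. In BMD, Adamts1 had a log2 ratio in cardiomyocyte-like nuclei 1.77 above that in fibroblast-like nuclei. Mmp16 in fibroblast-like nuclei lay on opposite sides of WT in BMD and DMD, the log2 ratio of BMD minus that of DMD being -4.72, which rests on 1 UMI in BMD. The DMD value includes fibroblast-like nuclei with bone or cartilage genes.

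Outside the named classes, an unnamed cluster led by Nrg1 held Adamts17 at 186.5 CPM over the 3 libraries, above the level in every named class.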

How the results depend on the processing

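No paired analysis was possible because each genotype had 1 library, and no replicate could be left out. Of 80 ratios past the fold in the 5 largest classes, 63 (nuclei of at least 1000 UMIs) to 79 (members left in the clustering) were still past it. The ratio changed sign in 8 cases. With doublets removed, Adamts5 in mural-like nuclei had a log2 ratio of 1.08 in BMD and 0.98 in DMD, and at Leiden resolution 1.0 of 0.16 and 0.60. Adamts3 in macrophage-like nuclei of DMD came to 0.064 at resolution 1.0. At that resolution the Spp1 cluster, of 569 nuclei, was unnamed and so left out of the macrophage-like class. Clusters of 85 and 60 nuclei with mural markers were unnamed there too. Adam12 in mural-like nuclei of DMD in nuclei of at least 1000 UMIs came to -0.0044. With free RNA subtracted, Mmp2 in BMD came to 1.74 in cardiomyocyte-like and 0.21 in endothelial-like nuclei. The cause was not tested.

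Among nuclei of at least 1000 UMIs, the members past the fold numbered 4 instead of 7 in endothelial-like nuclei of BMD, 5 instead of 3 in those of DMD and 2 instead of 6 in mural-like nuclei of DMD. Without nuclei of over 5% mitochondrial UMIs they numbered 5 in endothelial-like and 4 instead of 7 in macrophage-like nuclei of DMD. With free RNA subtracted, endothelial-like nuclei of DMD had 9. By the mean over nuclei, mural-like nuclei of BMD had 2 instead of 5. Macrophage-like nuclei of DMD had 4 at resolution 1.0 and 4 with a minimum of 100 UMIs. Within the finer clusters, cardiomyocyte-like nuclei of BMD had 1 (Dhrs7c) and 4 (Xirp2) instead of 7, and those of DMD 7 (Xirp2) instead of 13. Macrophage-like nuclei had 2 (Spp1) and 2 (Flt3) instead of 9 in BMD, and 4 and 3 instead of 7 in DMD, with fewer UMIs in each cluster. The other counts stayed within 1.5 times, but a like count can hold other genes. In mural-like nuclei of BMD, 4 members were past the fold with doublets removed and 4 at resolution 1.0, of which 1 each was among the 5. In those of DMD 4 of the 6 were kept each time. In macrophage-like nuclei of BMD 6 of the 9 were kept with doublets removed and 6 at resolution 1.0, and in those of DMD 5 and 3 of the 7. Members under 50 UMIs in a class could not be compared at this depth, and intervals leave out the spread between animals.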

Other observations

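Outside the 5 largest classes, Adam12 in T or B cell-like nuclei was at 74.97 CPM (WT, 44 UMIs), 197 (BMD, 75 UMIs) and 167 (DMD, 89 UMIs), while the fibroblast markers there summed to 2031, 1481 and 3121 CPM in WT, BMD and DMD. In endothelial-like nuclei Adam17, the sheddase of TNF, was at 163 CPM (WT, 219 UMIs), 182 (BMD, 329 UMIs) and 165 (DMD, 331 UMIs), within the fold. In lymphatic-like nuclei, its highest class, Adamts4 was at 16.1 CPM (WT, 3 UMIs), 56.1 (BMD, 22 UMIs) and 27.7 (DMD, 9 UMIs).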
